A study of Mus musculus with 6 samples.

Results

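Integrins are the cell surface receptors that tie leukocytes to other cells and to the extracellular matrix. Each receptor is a pair of an alpha chain, which sets most of the ligand choice, and a beta chain, which links to the actin cytoskeleton through talin and kindlin, and a chain leaves the endoplasmic reticulum only with a partner. Dendritic cells carry the leukocyte integrins built on Itgb2, among them the CD11c chain Itgax that is used to recognise them, and the matrix integrins built on Itgb1, of which the pair with Itga5 is the classical fibronectin receptor. The 9 subunits described here, Itgax, Itgam, Itgal, Itgb2, Itga4, Itga5, Itgav, Itgb1 and Itgb7, were taken by gene symbol. All 9 were found among the 23398 genes of the table, and all 9 passed the filter on low values.

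The libraries came from mouse bone marrow derived dendritic cells kept in DMEM with serum. One group of 3 libraries was exposed to Ca(OH)2 nanoparticles and the other group of 3 to vehicle, both for 12 hours, and the design asks how the mRNA profile differs between them. The labels give neither strain, age, sex nor genotype, name no growth factor, and do not say whether libraries of a group came from separate mice or cultures, so p-values below measure the spread between these libraries, which may be technical. Levels are FPKM, fragments per kilobase of gene scaled by library.

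Read totals recovered from the values were 17430198 to 22112369 per library. Nanoparticle library 1 stood apart from nanoparticle libraries 2 and 3. Correlated on log2(FPKM + 1) over 10682 tested genes (genes are not replicates), it gave 0.9423 and 0.9282 with the others of its group, against 0.9895 between nanoparticle libraries 2 and 3 and 0.9926 to 0.9938 among vehicle libraries. Each result is therefore also given without it where that matters. The labelled cell type was checked against marker genes. Of 14 dendritic cell markers, 12 had a mean of at least 1 FPKM in vehicle and 10 with nanoparticles. Cd74 was at 3902 to 4264 FPKM in vehicle and at 2270, 4790 and 5273 FPKM in nanoparticle libraries 1 to 3. Flt3, a receptor found on conventional dendritic cells, was at 0 to 0.0793 FPKM in all 6 libraries. These markers also differed between the groups. Of the 12 tested, at a limma adjusted p under 0.05, Irf8 rose, Zbtb46, Ciita, Cd209a, Clec10a and Clec9a fell, and 6 did not pass. Over all tested genes 33.2% were called. Cd209a went from a mean of 5.69 to 0.0254 FPKM and Irf8 from 8.68 to 21.2 FPKM. All 14 macrophage and monocyte markers had a mean of at least 1 FPKM in both groups. In the same test 5 of these 14 rose, 6 fell and 3 did not pass. The summed level of this list was 15503 to 16864 FPKM in vehicle and 13047 to 18685 FPKM with nanoparticles. The 13 listed T, B and NK cell markers in the table summed to at most 0.803 FPKM in any library.

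The subunits past the test were Itga5 and Itgb1, which rose, and Itgb7, which fell, though the call for Itgb1 depended on the scaling between libraries. The stretches around their transcription starts are shown because these are the members past the test. Each runs from 250 bases before to 50 bases after the start in RefSeq, GRCm38.p6, read 5′ to 3′ along the gene's strand. Capitals mark GAGGAA, the core of sites of the myeloid factor PU.1, and GGGCGG, the GC box, on either strand. No capitals overlap.
Itga5, chr15:103366742-103367041, minus strand: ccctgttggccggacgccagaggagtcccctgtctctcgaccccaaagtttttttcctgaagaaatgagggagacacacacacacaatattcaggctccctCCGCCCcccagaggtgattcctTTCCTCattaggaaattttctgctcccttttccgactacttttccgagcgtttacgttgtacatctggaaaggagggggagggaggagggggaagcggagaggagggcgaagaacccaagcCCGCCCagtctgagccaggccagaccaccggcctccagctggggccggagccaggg
Itgb1, chr8:128685404-128685703, plus strand: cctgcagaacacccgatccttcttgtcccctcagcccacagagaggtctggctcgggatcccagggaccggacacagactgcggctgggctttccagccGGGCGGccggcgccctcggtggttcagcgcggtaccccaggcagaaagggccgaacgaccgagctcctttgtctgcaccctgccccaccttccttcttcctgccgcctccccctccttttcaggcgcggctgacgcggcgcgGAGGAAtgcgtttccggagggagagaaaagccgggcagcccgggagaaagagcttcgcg
Itgb7, chr15:102231886-102232185, minus strand: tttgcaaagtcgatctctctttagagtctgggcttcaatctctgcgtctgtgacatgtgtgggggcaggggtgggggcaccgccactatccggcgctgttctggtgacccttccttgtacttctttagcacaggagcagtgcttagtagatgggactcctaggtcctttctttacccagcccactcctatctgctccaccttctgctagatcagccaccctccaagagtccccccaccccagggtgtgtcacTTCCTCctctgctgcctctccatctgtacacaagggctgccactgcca

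GAGGAA was found once in each of these windows, and in 28.3% of the 32851 promoter windows of the table. GGGCGG was found at 2 places in the Itga5 window, at 1 in the Itgb1 window and at 0 in the Itgb7 window, and in 35.7% of all windows. The kappaB consensus and the AP-1 motif TGANTCA were searched on both strands as well. Neither was found in these 3 windows, and they occur in 8.46% and 7.81% of all windows. GC content was 58.7% for Itga5, 67.3% for Itgb1 and 56.3% for Itgb7, against a median of 52.7% over all windows. The table held windows for 7 of the 9 members, all but Itgal and Itgb2. Members that did not pass the test carried these motifs too. GAGGAA was found at 3 places in the Itgam window and at 2 in that of Itgav, and at 0 in those of Itgax and Itga4. GGGCGG was found at 1 place each for Itgam, Itga4 and Itgav and at 0 for Itgax, and TGANTCA at 1 place for Itgax.

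Itgb2, the CD18 chain shared by all leukocyte integrins of the CD11 group (ENSMUSG00000000290, chromosome 10, 77530252 to 77565708, plus strand, GENCODE M21 on GRCm38), was the most abundant member. It stood at 901, 847 and 833 FPKM in vehicle libraries 1 to 3 and at 598, 724 and 667 FPKM in nanoparticle libraries 1 to 3. Every nanoparticle library lay below every vehicle library. In whole cultures, fewer cells of a type and less RNA per cell cannot be told apart. The means were 861 ± 36.0 and 663 ± 63.2 FPKM (SD, n = 3 each), a difference of -0.38 on the log2(FPKM + 1) scale (SE 0.15), which did not pass limma's moderated test after Benjamini-Hochberg adjustment over all tested genes (adjusted p = 0.0935). Without nanoparticle library 1 the difference was -0.31 and passed (limma adjusted p = 0.00525). It also passed without the variance trend, at the same difference (limma adjusted p = 0.04).

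The alpha chains that pair with Itgb2 lie on chromosome 7. Itgax, the CD11c chain (ENSMUSG00000030789, 128129547 to 128150657, plus strand), held 456, 442 and 448 FPKM in vehicle and 248, 398 and 375 FPKM with nanoparticles. All nanoparticle libraries were below the vehicle range, nanoparticle library 1 by the widest margin. The means were 449 ± 7.16 and 340.4 ± 80.6 FPKM (SD, n = 3 each), and the log2 difference was -0.43 (SE 0.21, limma adjusted p = 0.163). Leaving out nanoparticle library 1, it was -0.22 and passed (limma adjusted p = 0.01).

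Itgam, the CD11b chain of the complement receptor Mac-1 (ENSMUSG00000030786, 128062640 to 128118491, plus strand), had, relative to its mean, a wider spread among nanoparticle libraries than Itgax, Itgal and Itgb2, at 45.5, 92.7 and 111.5 FPKM, against 122, 111.7 and 115 FPKM in vehicle. The groups did not overlap, but nanoparticle library 3 lay within 1 FPKM of the lowest vehicle library. The log2 difference was -0.57 (SE 0.33, limma adjusted p = 0.228) and -0.19 without nanoparticle library 1 (limma adjusted p = 0.0954). In the annotation, 68.7% of the exon bases of Itgam are also exons of Gm49368, a gene model on the same strand that was at 0.529 FPKM or less. How reads in shared exons were counted is not given in the sources used here, so the level of Itgam relative to the other chains is uncertain.

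Itgal, the CD11a chain of the ICAM receptor LFA-1 (ENSMUSG00000030830, 127296260 to 127335138, plus strand), was the steadiest member. Vehicle libraries held 31.8, 29.9 and 31.8 FPKM and nanoparticle libraries 30.4, 30.1 and 28.9 FPKM. These ranges overlapped, and the log2 difference was -0.06 (SE 0.09, limma adjusted p = 0.642). Neutrophils and lymphocytes also carry these chains. The 14 neutrophil markers summed to 266 to 299.6 FPKM in vehicle and 237 to 309.5 FPKM with nanoparticles, with Mmp8 the most abundant of them. Of the 5 tested, 3 rose, 1 fell and 1 did not pass, a called share of 80.0% beside 33.2% of all genes. Mmp8 fell from a mean of 245 FPKM to 129 to 133 FPKM per library, and S100a8 rose from a mean of 34.9 FPKM to 50.1, 90.3 and 109 FPKM. Csf3r rose from 0.586 ± 0.0957 to 4.21 ± 0.603 FPKM and Lcn2 from 0.234 ± 0.102 to 50.4 ± 3.45 FPKM (SD, n = 3 each). Csf3r and Lcn2 passed the filter on low values through their nanoparticle libraries alone. S100a9 did not pass the test, with a mean of 1.19 FPKM in vehicle and 0.352, 13.2 and 10.2 FPKM with nanoparticles. Of those not tested, Ngp went from a mean of 0.534 to 2.53 FPKM and Camp from 0.0853 to 1.35 FPKM, highest in nanoparticle libraries 2 and 3. Cxcr2 went from 0.653 to 0.053 FPKM. Ly6g and Mpo were at no more than 0.192 and 0.0537 FPKM in any library, and Elane, Ltf, Retnlg and Prtn3 at no more than 0.315 FPKM. The part of neutrophils and lymphocytes in these results was not tested.

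Itgb1, the CD29 chain of the matrix and VCAM-1 receptors (ENSMUSG00000025809, chromosome 8, 128685654 to 128733200, plus strand), stood at 106, 100.4 and 104 FPKM in vehicle and at 208, 167 and 147 FPKM with nanoparticles. The groups were separate, with every nanoparticle library higher. The mean rose from 103 ± 2.70 to 174 ± 30.8 FPKM (SD, n = 3 each), 1.68-fold, or 0.73 log2 units in limma (SE 0.15, adjusted p = 0.0127). The call did not hold without vehicle library 1, 2 or 3 (limma adjusted p = 0.0549, 0.065 and 0.0611), nor with libraries scaled by their read totals (log2 change 0.39, limma adjusted p = 0.0949) or to equal FPKM sums (0.26, limma adjusted p = 0.313). Without nanoparticle library 1 it was 0.60 (limma adjusted p = 0.000373).

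Itga5, the alpha chain of the fibronectin receptor (ENSMUSG00000000555, chromosome 15, 103344286 to 103366763, minus strand), showed the clearest rise. Its levels were 34.0, 33.4 and 32.0 FPKM in vehicle and 129, 87.3 and 77.3 FPKM with nanoparticles. The lowest nanoparticle library was far above the highest vehicle library. The means were 33.1 ± 1.04 and 98.0 ± 27.6 FPKM (SD, n = 3 each), 2.96-fold higher with nanoparticles, and limma put the change at 1.50 log2 units (SE 0.20, adjusted p = 0.00224). Nanoparticle library 1 was 1.57 times the mean of the others of its group, and without it the log2 change was 1.29 (limma adjusted p = 1.63e-05). The call held under all 12 alternatives, the highest limma adjusted p being 0.0169 with libraries scaled to equal FPKM sums. Itgb1 and Itga5 are also abundant in stromal cells. Of 11 stromal and endothelial markers in the table, Col1a1 and Col1a2 were at 0 in 5 of 6 libraries and at no more than 0.0093 FPKM in nanoparticle library 1, and the summed level of the list was 1.24 to 1.62 FPKM in vehicle and 2.88 to 9.13 FPKM with nanoparticles, the highest being nanoparticle library 1. Kdr, the single gene of that list tested, rose from 0.529 ± 0.0575 to 2.34 ± 1.65 FPKM (SD, n = 3 each, limma adjusted p = 0.0491), and Pdgfrb had 9 reads in all vehicle and 296 in all nanoparticle libraries, Dcn 3 and 268. Their part in these changes was not tested.

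Itgav, the alpha chain of the vitronectin receptors and of the integrins that release active TGF-beta (ENSMUSG00000027087, chromosome 2, 83724397 to 83806916, plus strand), was a low member. It held 5.20, 5.12 and 5.81 FPKM in vehicle and 15.9, 8.14 and 7.06 FPKM with nanoparticles. No nanoparticle library reached down to the vehicle range, and nanoparticle library 1 was 2.10 times the mean of the other two. The log2 difference of 0.76 (SE 0.28) did not pass (limma adjusted p = 0.0823). Without nanoparticle library 1 it was 0.43, smaller but past the threshold (limma adjusted p = 0.00536).

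Itga4, which pairs with Itgb1 as the VCAM-1 receptor VLA-4 and with Itgb7 as a gut homing receptor (ENSMUSG00000027009, chromosome 2, 79255426 to 79333123, plus strand), was the lowest member in vehicle. Its values were 4.26, 4.09 and 3.78 FPKM in vehicle and 5.03, 4.42 and 2.91 FPKM with nanoparticles, spread to both sides of the vehicle range. The log2 difference was 0.00 (SE 0.17, limma adjusted p = 1.00).

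Itgb7, the partner of Itga4 and Itgae in receptors for the mucosal addressin Madcam1 and for E-cadherin (ENSMUSG00000001281, chromosome 15, 102215995 to 102231944, minus strand), showed the largest change of the members. It was at 10.3, 12.0 and 10.0 FPKM in vehicle and at 2.61, 2.36 and 2.10 FPKM with nanoparticles, on 571, 658 and 579 reads against 118, 108 and 112 reads. The nanoparticle libraries lay close together and far below vehicle. The mean fell 4.58-fold, from 10.8 ± 1.05 to 2.35 ± 0.255 FPKM (SD, n = 3 each), or -1.81 log2 units in limma (SE 0.11, adjusted p = 0.000155). This call also held under all 12 alternatives, with a highest limma adjusted p of 0.00228, and without nanoparticle library 1 the log2 change was -1.87.

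**Figure D1:**
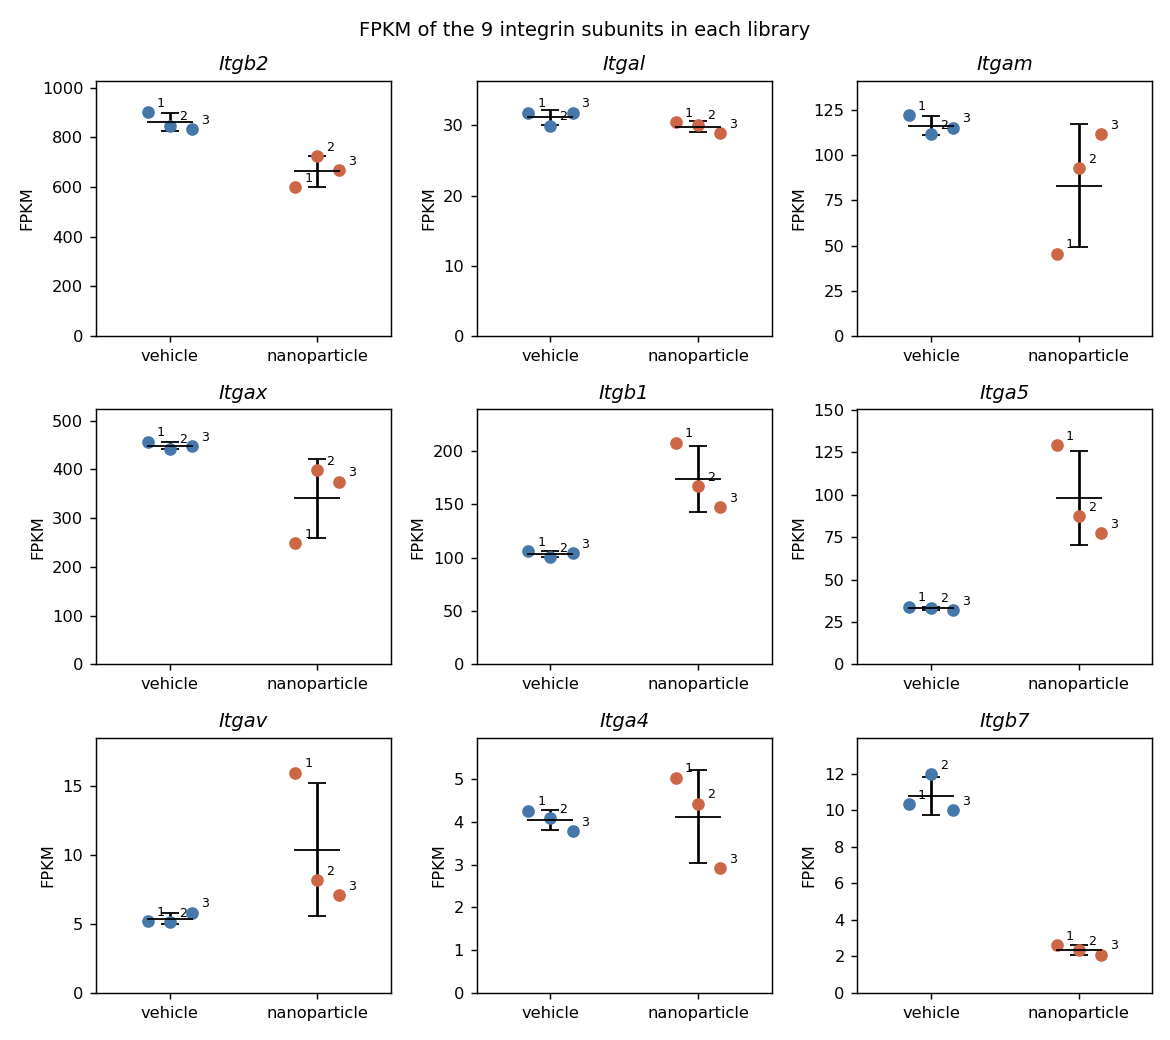
FPKM (vertical axis, from 0) of each of the 9 subunits in the 3 vehicle and 3 nanoparticle libraries; points are libraries labelled by replicate number, the horizontal line is the mean and the bars are ± 1 SD. Itga5 and Itgb1 are higher and Itgb7 lower in every nanoparticle library, and nanoparticle library 1 lies apart from libraries 2 and 3 in Itgam, Itgax, Itga5 and Itgav.

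In all, 2 of the 9 members rose, 1 fell and 6 did not pass. That is 33.3% of the members, beside 33.2% of the 10682 genes tested, 17.0% higher and 16.2% lower, so the share of members called is near that of all genes. The groups did not overlap in 7 members, 3 with nanoparticles above and 4 below, against 52.1% of all genes (25.9% above and 26.2% below). The median log2 difference of the members was -0.06, against 0.00 for all tested genes. Nanoparticle library 1 was the library farthest from the vehicle mean in 6 members, the exceptions being Itgal, Itga4 and Itgb7, for which it was nanoparticle library 3. Without nanoparticle library 1, Itga5, Itgb1 and Itgav were higher and Itgb7, Itgb2 and Itgax lower past the threshold, 6 members in all, where 64.8% of all genes were called (34.3% higher and 30.5% lower).

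The scaling between libraries moved the members together. With libraries scaled by their read totals the median of all tested genes shifted from 0.00 to -0.28, and with equal FPKM sums to -0.38. By read totals, Itgb2 (-0.72), Itgax (-0.77), Itgal (-0.39) and Itgb7 (-2.09) were lower past the threshold, Itga5 was higher (1.17) and Itgam was at -0.91 (limma adjusted p = 0.053), with 44.0% of all genes called (10.4% higher and 33.6% lower). With equal FPKM sums Itgam passed too, at -1.04, and 6 members were called, with 48.6% of all genes (8.25% higher and 40.3% lower). The direction of Itga5, Itgb1 and Itgav stayed higher, and that of Itgb2, Itgax, Itgam, Itgal and Itgb7 lower, under both scalings.

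**Figure D2:**
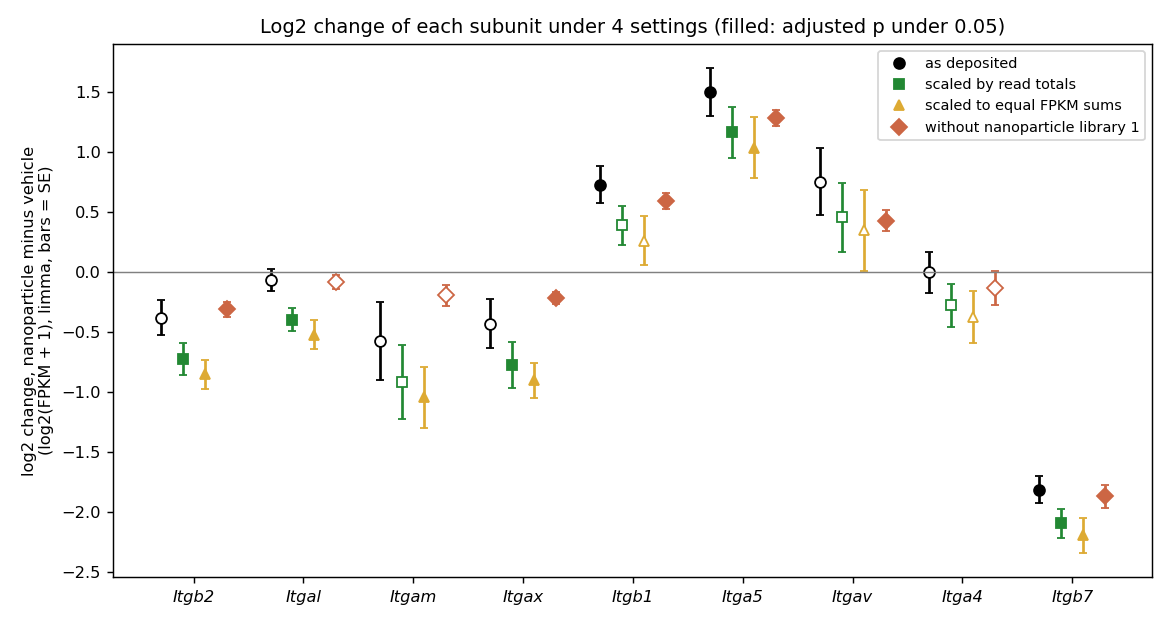
Log2 change of each subunit, nanoparticle minus vehicle on the log2(FPKM + 1) scale, from limma, with the values as deposited, under 2 other scalings and without nanoparticle library 1; bars are SE and filled symbols have an adjusted p under 0.05. Itga5 and Itgb7 are filled in all 4 settings (1.50, 1.17, 1.04 and 1.29 for Itga5), whereas the chains of the Itgb2 family move further below 0 under both other scalings.

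Shares within a library do not depend on that scaling. Of the summed FPKM of the beta chains Itgb1, Itgb2 and Itgb7, Itgb1 took 10.4%, 10.5% and 10.97% in vehicle libraries 1 to 3 and 25.7%, 18.7% and 18.0% in nanoparticle libraries 1 to 3. Itgb5 and Itgb3, with means of 32.7 and 8.34 FPKM in vehicle, were not part of this sum. Itgb2 went the other way, from 88.3% ± 0.308 to 78.9% ± 4.29 (SD, n = 3 each), and so did Itgb7, from 1.11% ± 0.124 to 0.281% ± 0.0362 (SD, n = 3 each). Itgb2 thus stood at 8.33 ± 0.269 times the level of Itgb1 in vehicle and 3.92 ± 0.904 times with nanoparticles (SD, n = 3 each). The groups were separate in all 3 shares. As parts of 1 sum these are not separate results. The difference of -9.37 percentage points for Itgb2 mostly mirrors that of 10.19 for Itgb1. The exact permutation test, two-sided, gave p = 0.1 for each, the smallest that 3 libraries against 3 allow, and a Benjamini-Hochberg adjusted p of 0.129 over the 9 shares computed.

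Among the partners of Itgb2, the order of the chains was the same in every library, Itgax first, then Itgam, then Itgal. Itgax took 75.3% ± 0.475 of their summed FPKM in vehicle and 75.3% ± 2.18 with nanoparticles (SD, n = 3 each), with overlapping groups (exact permutation p = 1.00). Itgam took 20.0%, 19.1% and 19.4% in vehicle and 14.0%, 17.8% and 21.7% with nanoparticles, values to both sides of vehicle (exact permutation p = 0.7, adjusted p = 0.787). Itgal took 5.21%, 5.13% and 5.35% in vehicle and 9.39%, 5.77% and 5.61% with nanoparticles, higher in every nanoparticle library, by 1.69 percentage points in the mean and by 0.463 without nanoparticle library 1 (exact permutation p = 0.1, adjusted p = 0.129). Itgad, the remaining CD11 group chain, rested on 0 to 10 reads per library.

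Among Itga4, Itga5 and Itgav, which can pair with Itgb1, Itga5 took 78.2%, 78.4% and 76.9% of the summed FPKM in vehicle and 86.1%, 87.4% and 88.6% with nanoparticles. Itga4 dropped from 9.50% ± 0.362 to 3.70% ± 0.627 and Itgav from 12.7% ± 1.15 to 8.95% ± 1.43 (SD, n = 3 each). The level of Itgav was higher with nanoparticles in every library while its share of this group was lower, since Itga5 was higher by a larger factor. Each of these shares, which are parts of 1 sum and so not separate results, separated the groups (exact permutation p = 0.1, adjusted p = 0.129 for each). The share of nanoparticle library 1 was not the most distant from vehicle for Itga5 and Itgav, unlike in the levels of these genes.

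**Figure D3:**
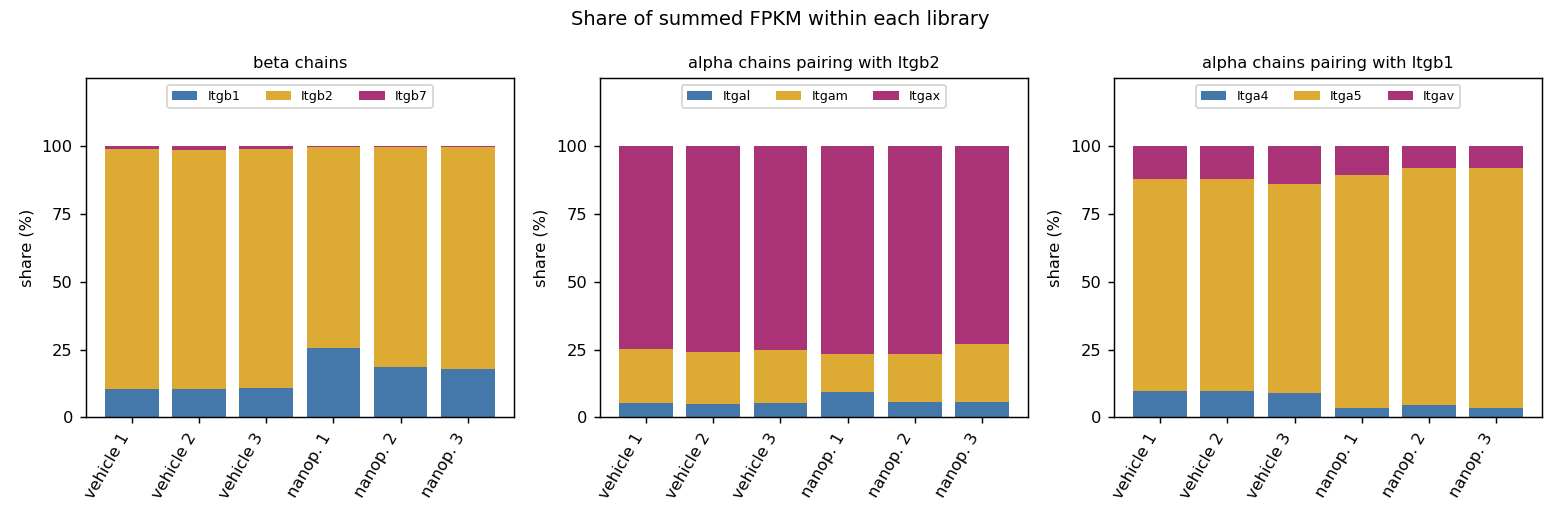
Share (%) of summed FPKM within each of the 6 libraries. The sums are of the beta chains Itgb1, Itgb2 and Itgb7, of Itgal, Itgam and Itgax, which pair with Itgb2, and of Itga4, Itga5 and Itgav, which can pair with Itgb1. Other subunits are not part of the sums. Each bar is 1 library and its colours are the genes. Itgb1 takes 10.4% to 10.97% of these beta chains in vehicle and 18.0% to 25.7% with nanoparticles, and Itga5 takes a larger part of its group in all nanoparticle libraries, whereas Itgax takes 72.7% to 76.6% throughout.

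The order of levels differed between the groups. In vehicle the order was Itgb2, Itgax, Itgam, Itgb1, Itga5, Itgal, Itgb7, Itgav and Itga4, and no pair of neighbours overlapped between libraries. With nanoparticles the means of Itgb1 and Itga5 stood above that of Itgam, and Itgb7 moved to the last place below Itgav and Itga4. The ranges of Itga5 (77.3 to 129 FPKM) and Itgam (45.5 to 111.5 FPKM) overlapped with nanoparticles, so these neighbours were not separated. Itga5 was above Itgam in nanoparticle library 1 only, and below it in libraries 2 and 3 (87.3 against 92.7 and 77.3 against 111.5 FPKM). Itga4 was at 0.377 ± 0.0354 times the level of Itgb7 in vehicle and at 1.73 ± 0.297 times with nanoparticles (SD, n = 3 each).

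Of the genes tested with a mean of at least 5 FPKM, those most like Itgb7 across the 6 libraries were Sesn2 (Pearson r = 0.998), Capn15 (r = 0.998) and Ddi2 (r = 0.997), out of 6109 genes compared. Sesn2, a stress-induced regulator of growth signaling, had 12.9, 14.2 and 13.2 FPKM in the vehicle libraries and 6.87, 6.94 and 6.62 FPKM in the nanoparticle libraries. All 6 libraries enter as 2 separate groups and share their scaling, so r mostly restates the group difference, and 48 genes had an r over 0.99.

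The table held 17 further integrin subunits, of which 5 passed the filter on low values. Of these 4 fell and 1 did not pass, where 16.2% of all genes were lower. This count depends on the filter. Itgae passed the filter through its vehicle libraries alone. Itgb8, given below, was higher in every nanoparticle library but missed the filter, with nanoparticle library 3 at 0.835 FPKM. Itgb5, a partner of Itgav in vitronectin binding, fell. Vehicle held 32.7 ± 0.563 FPKM and the nanoparticle group 12.3 ± 1.25 FPKM (SD, n = 3 each), with limma at -1.35 log2 units (SE 0.11, adjusted p = 0.000347). Itgae, the CD103 chain that pairs with Itgb7, fell too, from 2.02, 2.85 and 2.77 FPKM in vehicle to 0.214, 0.277 and 0.487 FPKM with nanoparticles (log2 change -1.42, limma adjusted p = 0.000806). Itga6, a laminin receptor chain, was at 3.66, 2.78 and 3.03 FPKM in vehicle and fell to 1.19, 1.23 and 1.10 FPKM (log2 change -0.93, limma adjusted p = 0.00154). The collagen receptor chain Itga1 fell from 2.87 ± 0.257 to 1.37 ± 0.605 FPKM (SD, n = 3 each, limma adjusted p = 0.0365), a call that was lost when vehicle library 1, 2 or 3 was left out (limma adjusted p = 0.0858, 0.119 and 0.117), with a pseudocount of 0.1 (0.0557) and with no filter (0.0929). Itgb3, the other main partner of Itgav, did not pass. It was at 8.74, 8.49 and 7.78 FPKM in vehicle and at 11.5, 6.34 and 5.40 FPKM with nanoparticles, above vehicle in nanoparticle library 1 and below it in libraries 2 and 3.

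Outside the filter, 12 subunits were low, 11 of them under 0.5 FPKM in every library. The exception was Itgb8, which pairs with Itgav to activate TGF-beta. It had 1, 5 and 1 reads in vehicle and 659, 184 and 178 reads with nanoparticles, or 0.00454, 0.0228 and 0.00433 FPKM against 3.65, 1.01 and 0.835 FPKM. All nanoparticle libraries were higher, nanoparticle library 1 most of all. With no filter its log2 difference was 1.35 (SE 0.37, limma adjusted p = 0.0672), on a scale that understates the change of such a low gene. The group of 18 listed for this purpose also names Itgb6, which was not analysed here.

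Genes that act with these receptors went both ways. Of 40 listed genes of integrin activation and anchoring, 30 were tested, 5 rose, 6 fell and 19 did not pass, a called share of 36.7%, near the 33.2% of all genes, with a median log2 difference of -0.07. The tyrosine kinase Src rose, with 9.57, 8.47 and 8.11 FPKM in vehicle and 59.0, 43.0 and 39.1 FPKM with nanoparticles (2.29 log2 units, limma adjusted p = 0.000287), and Syk (1.15), Rap1b (0.86) and Cytip (0.78) rose as well. Talin, Tln1, the adaptor that switches integrins on at the beta tail, fell, from 111, 105 and 106 FPKM in vehicle to 73.8, 62.5 and 52.5 FPKM (-0.77 log2 units, limma adjusted p = 0.00881). The Rap1 effector Rassf5 (-1.35), filamin Flna (-0.91) and the parvins Parvg (-0.88) and Parvb (-0.28) fell too. The call for Parvb was lost in 6 of 12 alternatives, that for Syk and Cytip with equal FPKM sums. The kindlin of blood cells, Fermt3, had means of 92.6 ± 3.57 and 78.9 ± 10.2 FPKM in vehicle and nanoparticle libraries (SD, n = 3 each) and did not pass (limma adjusted p = 0.222).

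Of 28 listed ligands and counter-receptors 14 were tested, 7 rose, 3 fell and 4 did not pass, a called share of 71.4% beside 33.2% of all genes (17.0% higher and 16.2% lower), with a median log2 difference of 0.43. The list was chosen with earlier results of these data known, and its share was not tested against that of all genes. Icam1, the ligand of the Itgal and Itgam pairs with Itgb2, rose, from 44.7, 41.9 and 42.2 FPKM in vehicle to 87.6, 93.6 and 76.5 FPKM (0.98 log2 units, limma adjusted p = 0.00145), and so did the junctional ligand F11r (1.09). Complement C3 (1.75), whose fragments bind the pair of Itgam and Itgb2, and the integrin associated protein Cd47 (1.61) rose too. Vcam1, the ligand of Itga4 with Itgb1, was under the level set for naming and was chosen after its values were seen. Its values were 0.509, 0.489 and 0.540 FPKM in vehicle libraries against 5.85, 3.52 and 2.89 FPKM (log2 change 1.71, limma adjusted p = 0.00172). It passed the filter on low values through the nanoparticle libraries alone. Fn1, fibronectin, the ligand of Itga5 with Itgb1, fell, from 40.2, 39.7 and 39.5 FPKM in vehicle to 2.17, 8.99 and 8.41 FPKM, lowest in nanoparticle library 1 (-2.61 log2 units, limma adjusted p = 0.00528). Cdh1, the E-cadherin ligand of Itgae with Itgb7, fell by 3.10 on the log2 scale (limma adjusted p = 0.0038). Tgfb1 was higher by 0.46 (limma adjusted p = 0.0437), a call lost in 9 of 12 alternatives, and its difference turned to -0.00 with equal FPKM sums.

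Of the 10 tetraspanins, membrane proteins that sit beside integrins, 4 rose, 2 fell and 4 did not pass, beside 33.2% of all genes called, with a median log2 difference of 0.09. Cd82 rose by a log2 change of 1.09 (limma adjusted p = 0.00144), Cd53 by 0.70 and Cd37 by 0.53. The calls for Cd53 and Cd37 were lost under both other scalings, and in 5 and 6 of 12 alternatives in all. Cd81 (-0.73) and Tspan14 (-1.54) fell, the latter to 5.85, 19.4 and 21.5 FPKM in nanoparticle libraries 1 to 3. Its call was lost in 5 of 12 alternatives, among them leaving out vehicle library 1, 2 or 3.

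**Figure D4:**
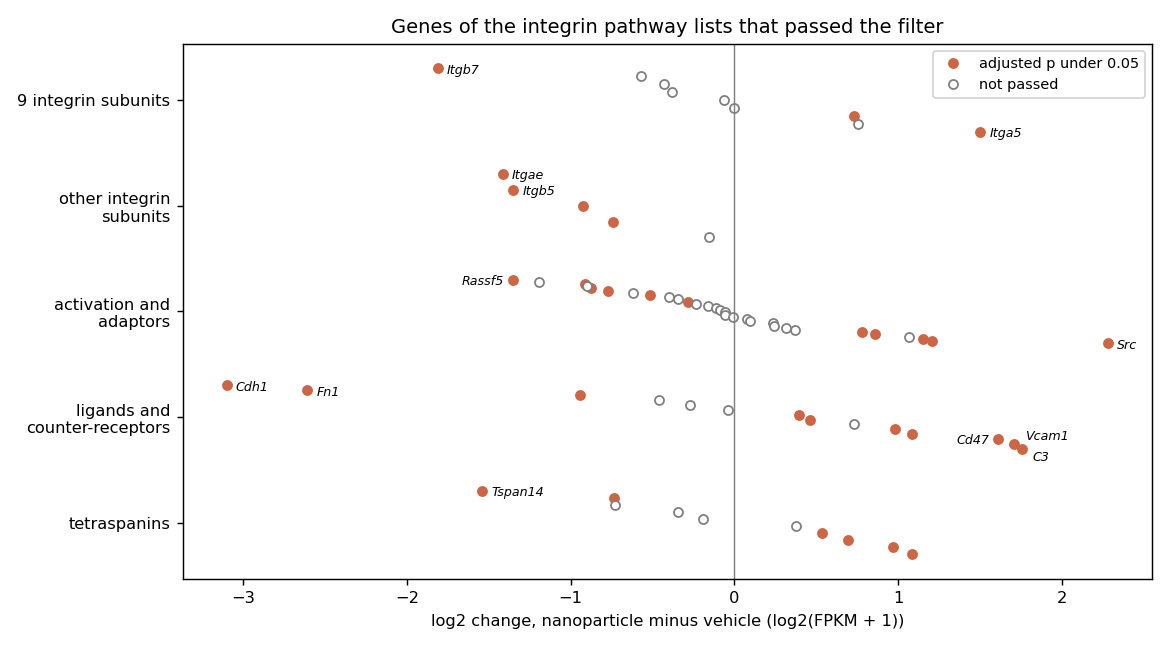
Log2 change (horizontal axis, log2(FPKM + 1), nanoparticle minus vehicle) of the tested genes of the 9 subunits and of 4 lists of related genes, 1 point per gene, filled where the adjusted p is under 0.05. The 5 tested further subunits all lie below 0, with 4 past the test, where 16.2% of all tested genes were lower. Itgb8, higher in every nanoparticle library, missed the filter on low values and is not shown. The other lists have called genes on both sides, from Cdh1 at -3.10 to Src at 2.29.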

How the data were processed

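RNA was measured in 3 vehicle and 3 nanoparticle libraries, each built from 1 µg of total RNA with an Illumina library kit. The authors deposited 2 tables that hold the same 140388 values. The deposited values were treated as FPKM, a unit inferred from the values, since 95.8% to 96.1% of those above 0 became whole reads (within 0.01) when multiplied by GENCODE M21 exon length and 1 scale per library. For 93 abundant genes another length was needed. All 9 members came out whole. The submitters' processing notes name CASAVA, STAR 2.5, HTSeq, edgeR 3.16.5 and DESeq2 and the builds mm10 and hg19, without roles.

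The 10682 genes that reached 1 FPKM in 3 or more libraries were tested on log2(FPKM + 1) with limma 3.58.1 in R 4.3.3 (lmFit, eBayes with trend, group as the single term), with Benjamini-Hochberg adjustment over all of them and a threshold of 0.05. A gene low in 1 group can pass this filter through the other group alone. Kdr, Vcam1, Hdc, Csf3r and Lcn2 passed through the nanoparticle libraries, and Itgae, Cd209a and Selp through the vehicle libraries. The code was tested on simulated data. Chain shares were compared with exact permutation tests. Alternatives were another pseudocount, no filter, 2 scalings, no trend, a replicate block and leaving out each library. Members and lists were chosen with earlier results of these data known. Named pathway genes are up to 5 called genes per list and direction with the largest change and a mean of 5 FPKM or more in the group where they are higher. One gene that this rule selects is not reported here. Integrin subunits under 0.5 FPKM in every library are given as a count, apart from Itgad. Markers of mast cells and basophils summed to 2.69 to 4.90 FPKM in vehicle and 9.63 to 25.0 FPKM with nanoparticles, those of platelets to 221 to 248 and 145 to 697 FPKM. In the first list Hdc rose, Gata2 fell, Cpa3 did not pass and the others were not tested. Hdc was at 24.1, 6.69 and 6.76 FPKM in nanoparticle libraries 1 to 3. Among platelet genes, Pf4, at 140, 547 and 641 FPKM in those libraries, and Ppbp did not pass, and Selp fell. Gp1ba and Gp5 were at no more than 0.501 and 0.0872 FPKM in any library, and Gp6 had 0 reads in vehicle and 166 with nanoparticles. The part of such cells was not tested.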

Additional observations from a re-analysis of the deposited data

How the results depend on the processing

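The number of genes past the threshold was 3550 and ran from 2141 to 6923 when 1 library was left out. Members past the threshold were 3 of 9. They ran from 2 to 6 when 1 library was left out, the 6 being without nanoparticle library 1, and numbered 6 with values scaled to equal FPKM sums and 5 with scaling by recovered read totals. When shares were computed on recovered reads in place of FPKM, the differences of Itga4 and Itga5 in percentage points were -11.4 and 15.6, in place of -5.79 and 9.50, since reads weigh the long Itga4 transcript more. The difference for Tgfb1 was -0.0041 with values scaled to equal FPKM sums. Across 37 genes and 12 alternatives, 444 values in all, 388 stayed on their side of the threshold, 42 lost the call, 13 gained one and 1 called value, that of Tgfb1, changed sign. Uncalled values also changed sign, Itgb3 from -0.15 to 0.04 without nanoparticle library 3, and Itga4, at 0.00, ran from -0.37 to 0.18. Without the variance trend 4 members passed, Itgb2 being the added one. Same-numbered libraries of the groups did not deviate together (correlations of deviations from group means of 0.07, 0.11 and -0.06 for numbers 1 to 3), so the number was not taken as a pairing. With the replicate block 2785 genes and 3 members passed. The calls for Itga5, Itgb1 and Itgb7 held with it. No call of the shares can pass 0.05 with 3 libraries against 3.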
